A study of Sus scrofa with 2 samples.

Results

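RBM3 encodes a small glycine-rich RNA-binding protein of the cold-inducible family, and its messenger RNA was counted in 2 single-cell RNA sequencing libraries of pig skin. It is 1 of 31908 genes in the deposited matrices. The gene was found by its Ensembl identifier ENSSSCG00000021591, since the name column repeats the identifier for this row, and a table of gene names pairs the identifier with RBM3. Full-thickness dorsal skin of healthy male farm pigs was dissociated into single cells. One library was made from untreated (fresh) cells and 1 from cells frozen in fetal bovine serum with DMSO, kept in liquid nitrogen and thawed (cryopreserved). Dead cells and doublets were removed by flow sorting as the study describes it, and the labels also name a magnetic kit as another way to remove dead cells. The extraction protocol attached to both samples describes freezing, and only the title and treatment labels mark 1 of them as fresh. Neither the labels nor the paper state if 1 animal or several gave the cells.

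Each condition has 1 library and no replicate, so no test was possible, and condition, library and animal cannot be told apart. Each value is given with an exact 95% interval, which covers counting error only and is narrower than the spread that separate animals or preparations would give.

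RBM3 and its close relative CIRBP are the best known genes induced by mild cooling in mammalian cells. The RBM3 protein binds messenger RNA through an RNA recognition motif and also associates with ribosomes. It is known to help protein synthesis continue at lowered temperature. Its messenger RNA is also made at normal temperature, above all in proliferating cells, and an alternative exon that is spliced in a temperature-dependent way is known to control its abundance.

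In the Sscrofa11.1 genome RBM3 lies on chromosome X from 42704019 to 42707587 on the plus strand, with 7 exons and no overlapping annotated gene. Its RefSeq transcript is 1186 nt long with 156 codons before the stop. The start codon is in exon 2 and the stop codon in exon 6. Exon 7, from 42707011 to 42707584, is 574 nt of 3′ untranslated region, and a library made from the 3′ ends of transcripts draws most of its reads from such an exon. The nearest genes, TBC1D25 and WDR13, lie 7439 bp before it and 7509 bp after it. A pair of copies that resemble the transcript, both at annotated loci, lie on chromosome 1, and each covers all 574 nt of exon 7. The copy at 136096742 to 136097829 is 94.4% identical over 1095 aligned positions and the copy at 247262670 to 247263805 is 92.9% identical over 1148. Their longest stretches identical to exon 7 are 66 and 77 nt. A region on chromosome 6, with no annotated gene, is 77.7% identical over 748 aligned positions. It covers 140 nt of exon 7, with a longest identical stretch of 45 nt. A read that lies wholly within such a stretch matches more than 1 place. The read length is not given here, so the extent to which this makes the counts of RBM3 uncertain was not tested.

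The matrices held 4379 fresh and 4860 cryopreserved barcodes with 53271738 and 42217632 unique molecular identifiers (UMIs), each of which marks 1 captured transcript. The study's maxima of 4500 genes, 30000 UMIs and 10% mitochondrial UMIs per cell left 2775 fresh and 4223 cryopreserved cells, with a median of 11017 and 7945 UMIs. Only 5 barcodes occurred in both libraries among these cells. The cells fell into 24 clusters, and 23 of them were assigned to 10 lineages from marker genes. These names were rebuilt here and may differ from the study's. RBM3 was not among the 2000 genes used to cluster the cells. In each lineage every listed marker that had a row was detected in both libraries, except CD3G at 0 UMIs in the T or NK-like cells. The same marker lists were used to name the clusters, so this detection is no separate check of the names. Some markers had few UMIs, such as MYL9 with 5 (fresh) and 11 (cryopreserved) in smooth muscle or mural-like cells.

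RBM3 was detected throughout the skin and was higher in the cryopreserved library. The filtered fresh cells held 6398 RBM3 UMIs and the filtered cryopreserved cells 10662. Levels are in CPM, a gene's UMIs relative to all UMIs of the same cells, with totals adjusted for composition by TMM factors. The level was 196 CPM in fresh cells (interval 191 to 200) and 295 CPM in cryopreserved cells (interval 289 to 300). The cryopreserved level was 1.51 times the fresh level (interval 1.46 to 1.55), a log2 ratio of 0.59. The median gene had a log2 ratio of 0.02. A log2 ratio of at least 0.5 was reached by 10.2% of the 14443 genes whose UMIs summed to at least 50 over the 2 libraries, and 6.90% had a ratio at or above that of RBM3. No single cell carried this count, as the cell with most RBM3 UMIs held 20 (fresh) and 27 (cryopreserved), which was 0.313% and 0.253% of the sums.

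The makeup of the libraries differed, so the lineages were also weighted alike. With the fresh library's lineage shares applied to both, the levels were 197 and 283 CPM and the ratio was 1.44.

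Keratinocytes, the cells of the epidermis, were among the cells with high RBM3. Differentiated keratinocyte-like cells, which express KRT1 and KRT10, had 407 CPM among fresh cells (interval 374 to 442, 563 UMIs in 86 cells) and 492 CPM among cryopreserved cells (461 to 526, 898 UMIs in 157 cells). Basal keratinocyte-like cells, which express KRT5 and KRT15, had 277 CPM (264 to 290, 1753 UMIs in 444 cells) and 351 CPM (338 to 363, 3103 UMIs in 901 cells). In each library the interval of the differentiated cells lay above that of the basal cells. The basal name covers a mixed group. Its largest cluster, led by MMP3 and SERPINB2, had 255 and 306 CPM of total UMIs. The cluster with KRT15 among its leading genes had 313 and 399. The listed basal markers summed to 21996 and 19968 CPM in basal keratinocyte-like cells. They also summed to 14616 and 13455 CPM in differentiated keratinocyte-like cells, so these names are not fully separated.

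The immune lineages spanned a similar range. T or NK-like cells, which express CD3E and CCL5, had 342 CPM among fresh cells (308 to 378, 371 UMIs in 145 cells) and 503 CPM among cryopreserved cells (465 to 543, 668 UMIs in 254 cells). Mast-like cells had 360 CPM (290 to 442) and 487 CPM (408 to 577), from only 92 and 133 UMIs. Their intervals are the widest on this scale among the 10 lineages, and they overlap those of the T or NK-like cells in both libraries. Langerhans or dendritic-like cells, the antigen-presenting cells with CD207 and FLT3, had 263 CPM (239 to 289) among fresh cells and 389 CPM (361 to 418) among cryopreserved cells. CD163/CD209 myeloid-like cells, a macrophage type, had 220 CPM (198 to 245) and 335 CPM (311 to 361). The names of these lineages are not fully separated by the T or NK markers. Their summed level was 2443 (fresh) and 3121 CPM (cryopreserved) in T or NK-like cells. It was 2500 and 2979 CPM in Langerhans or dendritic-like cells, and 1676 and 1609 CPM in CD163/CD209 myeloid-like cells. Among the remaining lineages the highest sum was 205 CPM, in fresh lymphatic-like cells.

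Stromal and vascular cells had the lowest RBM3 levels. Fibroblast-like cells, which make the collagen of the dermis, had 135 CPM among fresh cells (129 to 140, 2173 UMIs in 1215 cells) and 223 CPM among cryopreserved cells (216 to 230, 3579 UMIs in 1571 cells). Smooth muscle or mural-like cells had 166 CPM (148 to 185) and 211 CPM (191 to 233). Blood endothelial-like cells, which line the blood vessels, had 152 CPM (134 to 173) among fresh cells and 201 CPM (177 to 227) among cryopreserved cells. Lymphatic-like cells, marked by PROX1, had 148 CPM (123 to 177) and 252 CPM (213 to 295). In both libraries these 4 lineages were the lowest.

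**Figure D1:**
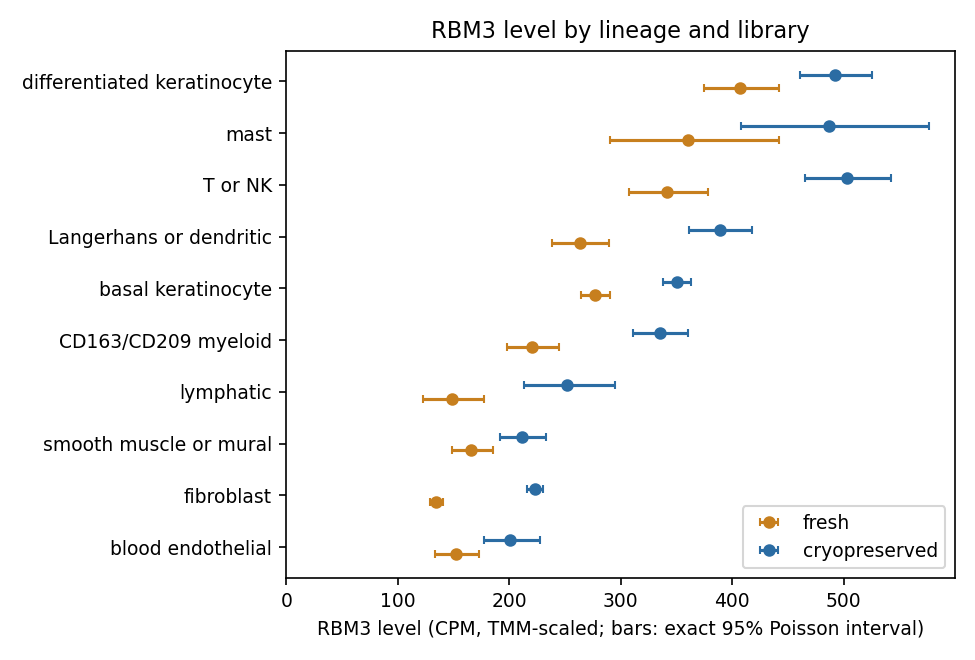
RBM3 level in CPM (x axis) for 10 lineages (y axis, ordered by the mean of both libraries) in the fresh and the cryopreserved library, with exact 95% Poisson intervals. The cryopreserved point lies to the right of the fresh point in every lineage, and the levels run from 135 to 407 CPM for fresh and from 201 to 503 CPM for cryopreserved cells.

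The lineage with the highest level had 3.03 times that of the lowest in the fresh library (differentiated keratinocyte-like over fibroblast-like cells) and 2.5 times in the cryopreserved library (T or NK-like over blood endothelial-like cells). Of the 45 pairs of lineages, 38 stood in the same order in both libraries. Over the 10 lineages, Pearson's r of the log2 levels in the libraries was 0.96 and Spearman's rho 0.85, as a description of points that share their library. In the order of mean level, 2 steps between neighbours exceeded counting error in both libraries. T or NK-like cells were above Langerhans or dendritic-like cells by 1.30 times in the fresh library and 1.29 times in the cryopreserved library. CD163/CD209 myeloid-like cells exceeded lymphatic-like cells by 1.49 and 1.33 times. Within the leading trio of differentiated keratinocyte-like, mast-like and T or NK-like cells, and within the trailing group of lymphatic-like, smooth muscle or mural-like, fibroblast-like and blood endothelial-like cells, no neighbouring step exceeded counting error in both libraries. Langerhans or dendritic-like, basal keratinocyte-like and CD163/CD209 myeloid-like cells lay between these groups, and each step among them exceeded counting error in 1 library only.

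RBM3 was higher in the cryopreserved library in all 10 lineages, and the interval of the ratio lay above 1 in all 10. In mast-like cells 1 cell held 12.8% of the cryopreserved RBM3 UMIs, and the interval of the log2 ratio reached 0 when the top cell of each library was left out (-0.03 to 0.81), without a mitochondrial limit (-0.01 to 0.76) and with TMM factors over all lineage sums (-0.02 to 0.77). In differentiated keratinocyte-like cells it reached 0 at a mitochondrial limit of 5% (-0.0038 to 0.32), and in Langerhans or dendritic-like cells in the class of 5000 to 10000 UMIs (-0.18 to 1.10). Among the 1406 genes with at least 50 UMIs in every lineage, 11.9% were higher in all 10 lineages. The lowest of the 10 log2 ratios of RBM3 was 0.27, and 21 of these genes, RBM3 included, had a lowest ratio at or above it, or 1.49%. The 10 lineages were cut from the same libraries and are not replicates of the condition.

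Over all filtered cells the ratio was not of 1 size. Lymphatic-like cells had a log2 ratio of 0.77 (0.41 to 1.12) and fibroblast-like cells 0.73 (0.65 to 0.80). For the immune lineages it was 0.60 (0.42 to 0.79) in CD163/CD209 myeloid-like cells, 0.56 (0.39 to 0.74) in Langerhans or dendritic-like cells, 0.56 (0.37 to 0.75) in T or NK-like cells and 0.44 (0.04 to 0.83) in mast-like cells. Smaller ratios were found in blood endothelial-like cells, at 0.40 (0.14 to 0.66), and smooth muscle or mural-like cells, at 0.35 (0.13 to 0.56). Both keratinocyte lineages were at the low end, with 0.34 (0.26 to 0.43) in basal and 0.27 (0.12 to 0.43) in differentiated keratinocyte-like cells. The interval of the fibroblast-like cells lay wholly above those of both keratinocyte lineages and of the smooth muscle or mural-like cells. Among cells of like depth this order held only in part. In cells of 5000 to 10000 UMIs, a setting chosen after seeing the data, differentiated keratinocyte-like cells had a log2 ratio of 1.01 (0.09 to 2.10) and basal keratinocyte-like cells 0.63 (0.31 to 0.96), and both intervals overlapped that of the fibroblast-like cells, at 0.88 (0.68 to 1.09). The lowest values there were 0.41 in smooth muscle or mural-like and 0.43 in Langerhans or dendritic-like cells. At 10000 to 20000 UMIs the ratio itself was 1.49 (1.39 to 1.59) in basal keratinocyte-like and 1.47 (1.38 to 1.58) in fibroblast-like cells. At 2500 to 5000 UMIs it was 1.34 (0.54 to 4.29) in basal keratinocyte-like and 1.57 (1.08 to 2.32) in fibroblast-like cells. At 20000 to 30000 UMIs fibroblast-like cells had 1.88 (1.64 to 2.16). Basal keratinocyte-like cells had 1.37 (0.98 to 1.89) there, from only 4 cryopreserved cells.

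Read against all genes of the same lineage, the ratio of RBM3 ranked higher in some lineages than in others. These shares, like that for the whole libraries, include genes with few UMIs, whose ratios carry more counting error. Lineages differ in total UMIs, and genes of like count were not compared. In fibroblast-like cells 3.97% of the 11843 genes with enough UMIs had a ratio at or above that of RBM3, and in lymphatic-like cells 5.26% of 4350. In basal keratinocyte-like cells the share was 18.1% of 10369, and in differentiated keratinocyte-like cells 24.4% of 6517. A log2 ratio of at least 0.5 was reached by RBM3 in 5 of 10 lineages. The share of all genes that reached it was 11.2% in fibroblast-like, 12.4% in lymphatic-like, 15.3% in CD163/CD209 myeloid-like, 11.1% in Langerhans or dendritic-like and 14.6% in T or NK-like cells. In the 5 lineages where RBM3 did not reach it, the share was 11.1% in mast-like, 10.1% in blood endothelial-like, 10.4% in smooth muscle or mural-like, 10.3% in basal keratinocyte-like and 11% in differentiated keratinocyte-like cells.

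**Figure D2:**
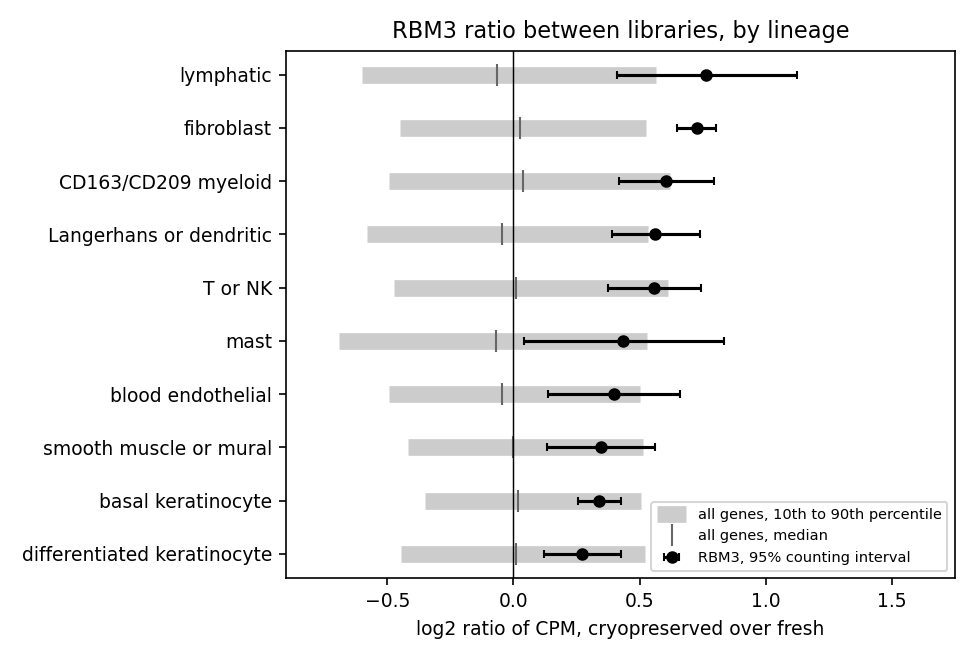
Log2 ratio of the RBM3 level, cryopreserved over fresh (x axis), by lineage (y axis). Black points are RBM3 with the exact 95% counting interval, grey bars span the 10th to 90th percentile of all genes with at least 50 UMIs in that lineage, and the grey tick is their median. RBM3 lies above 0 in every lineage, from 0.27 in differentiated keratinocyte-like to 0.77 in lymphatic-like cells.

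The finer clusters gave the same direction. RBM3 was higher in the cryopreserved library in all 23 named clusters, and the counting interval of the ratio lay above 1 in 20 of them. These are the same cells as in the lineages, so the count is no separate support and the clusters are not replicates. Blood endothelial-like, Langerhans or dendritic-like, differentiated keratinocyte-like, lymphatic-like and mast-like cells were a single cluster each. The share of all genes higher in all 23 clusters was not computed. The ratio of levels in CPM of total UMIs, the scale used for clusters and bins, ran from 1.14 in 1 of the T or NK-like clusters, led by RHEX and BLK, to 1.79 in the dividing T or NK-like cluster. Fresh levels ran from 125 to 401 CPM and cryopreserved levels from 176 to 642. Across the 23 clusters Spearman's rho between the libraries was 0.93.

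Levels also varied within a lineage. Among fibroblast-like clusters that were not dividing, a cluster led by COCH and TNN, with ACAN and COL11A1 among its leading genes, had 214 CPM among fresh cells (177 to 256) and 303 among cryopreserved cells. A cluster led by MYL10 and WIF1 had 126 (116 to 137) and 176. Among the myeloid-like clusters, the one led by ARG1 and MARCO had 325 and 495 CPM, from 50 and 174 RBM3 UMIs, against 218 and 291 in the cluster led by CD209 and C4BPA. The T or NK-like cluster led by GNLY and IL17F, with other genes of cytotoxic and innate-like lymphocytes, had 354 and 601. These clusters were picked for their values after these were seen.

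**Figure D3:**
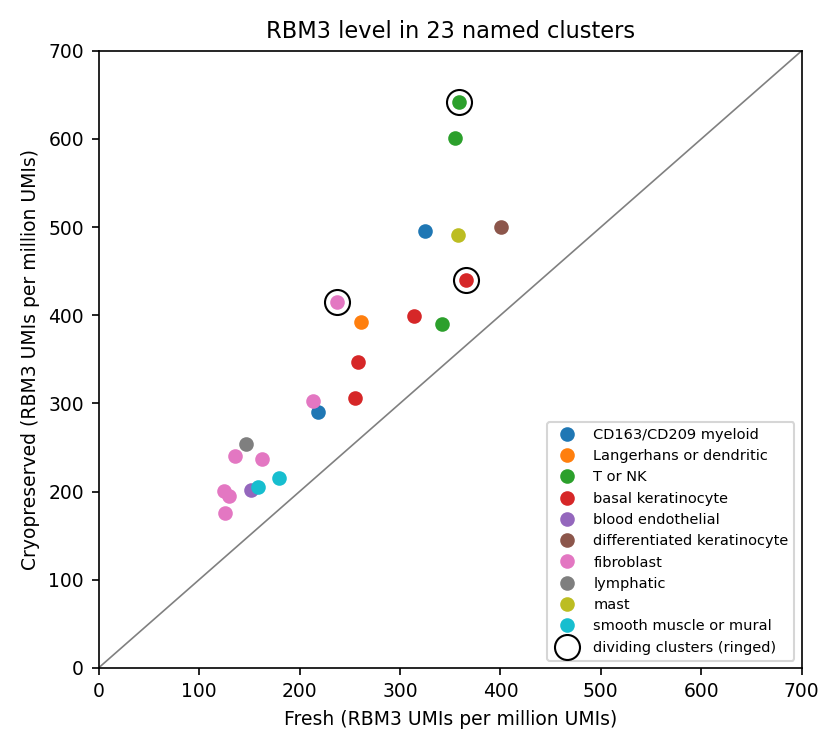
RBM3 level in CPM of total UMIs in the fresh library (x axis) and the cryopreserved library (y axis) for each of 23 named clusters, coloured by lineage. The grey line marks equal levels and black rings mark the dividing clusters. Every cluster lies above the line.

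Dividing cells formed a cluster of their own in 3 lineages, marked by genes of mitosis such as CCNB1, UBE2C and CENPF. In fibroblast-like cells the dividing cluster had 238 CPM against 136 in the other cells of the fresh library, a ratio of 1.74 (1.30 to 2.29, 18 dividing cells). The cryopreserved library gave 415 against 216, a ratio of 1.92 (1.48 to 2.46, 16 dividing cells). In basal keratinocyte-like cells the values were 366 against 272 in the fresh library, a ratio of 1.34 (1.10 to 1.62, 23 dividing cells), and 440 against 340 in the cryopreserved library, a ratio of 1.29 (1.16 to 1.44, 72 dividing cells). In T or NK-like cells the ratio was 1.03 (0.73 to 1.43) in the fresh library, with 8 dividing cells, and 1.35 (1.06 to 1.70) in the cryopreserved library, with 13.

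Depth moved with part of this comparison. The median dividing basal keratinocyte-like cell of the cryopreserved library had 12626 UMIs against 9056 in the others. With only cells of 10000 UMIs or more, a setting chosen after seeing the data, the log2 ratio of that comparison was 0.09 (-0.08 to 0.26) in place of 0.37. Under the same setting it was 0.41 in the fresh library, and in fibroblast-like cells it was 0.67 and 1.10.

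The share of cells with at least 1 RBM3 UMI depends on depth, and the cryopreserved cells were shallower. Without correction, 73.3% of fresh cells (71.6 to 74.9%) and 74.0% of cryopreserved cells (72.6 to 75.3%) had an RBM3 UMI. Each cell was then thinned at random to 3000 UMIs, which left out 149 fresh and 466 cryopreserved cells below that depth. The share became 38.1% (36.3 to 40%) of fresh and 50.9% (49.3 to 52.5%) of cryopreserved cells. In smooth muscle or mural-like cells the uncorrected share was 68.3% among fresh cells and 57.2% among cryopreserved cells, against the order of their levels, and at equal depth it was 38.8% (32.5 to 45.4%) and 45.2% (39.5 to 50.9%).

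At equal depth the share was higher in the cryopreserved library in all 10 lineages. It was 30.2% (27.6 to 32.9%) among fresh cells and 41.3% (38.8 to 43.8%) among cryopreserved cells of the fibroblast-like lineage, and 46.1% (41.4 to 50.9%) and 56.9% (53.6 to 60.2%) in basal keratinocyte-like cells. The intervals did not overlap in these 2 lineages and overlapped in the other 8. T or NK-like cells, for example, had 62.0% (53.5 to 70.0%) and 69.0% (62.3 to 75.2%). Mast-like cells had 69.0% and 81.5% of only 29 and 27 cells. This split depended on the thinning depth. At 5000 UMIs the intervals were also apart in CD163/CD209 myeloid-like, Langerhans or dendritic-like and blood endothelial-like cells. At 1000 UMIs they were apart only in blood endothelial-like cells, at 7.65% (4.35 to 12.3%) and 18.5% (14.0 to 23.7%). The variance of the RBM3 count per cell at 3000 UMIs ran from 0.93 times its mean in cryopreserved mast-like cells to 1.5 times in cryopreserved T or NK-like cells. It was 1.26 and 1.33 times the mean over all fresh and all cryopreserved cells, and counting alone gives a variance close to the mean.

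**Figure D4:**
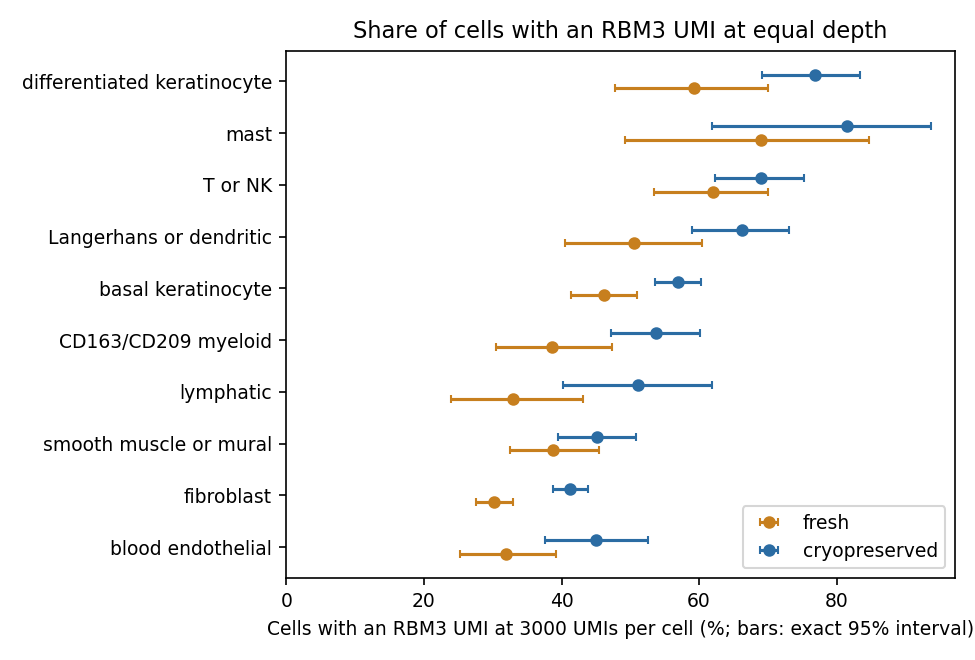
Percentage of cells with at least 1 RBM3 UMI after thinning every cell to 3000 UMIs (x axis), by lineage (y axis), with exact 95% binomial intervals. The share is higher in the cryopreserved library in every lineage. At this depth the intervals overlap in all lineages but the fibroblast-like and basal keratinocyte-like cells.

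Free RNA in the suspension can place UMIs in cells that do not express a gene. An unnamed cluster with HBB, a globin gene, as its first named leading gene held 0 RBM3 UMIs among 16559 UMIs of 3 fresh cells, which allows up to 181 CPM, and 1 among 34720 UMIs of 21 cryopreserved cells. Its cryopreserved share was 1 of 21 cells (4.76%, interval 0.120 to 23.8%) at a median of 1797 UMIs. As a second measure, the fibrillar collagen genes COL1A1, COL1A2 and COL3A1 took 0.0501% and 0.0393% of the UMIs of T or NK-like cells, against 5.34% and 5.47% of the whole fresh and cryopreserved libraries. If RBM3 entered these cells in the same proportion, 1.84 and 2.12 CPM would have come from free RNA, against measured levels of 342 and 503 CPM. This holds for 1 lineage only. The 8 listed fibroblast markers summed to 632 and 448 CPM in T or NK-like cells. In lineages other than the fibroblast-like cells the sum ran from 266 to 2821 CPM (fresh) and from 208 to 4067 CPM (cryopreserved). The listed erythrocyte genes, HBB among them, summed to 77.7 to 188 CPM (fresh) and 113 to 232 CPM (cryopreserved) over the lineages. That sum was higher in the cryopreserved library in every lineage, the same direction as RBM3. The part of RBM3 that came from free RNA was not tested.

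The difference between the libraries was compared among cells of like depth. In cells of 5000 to 10000 UMIs RBM3 had 156 CPM among fresh cells and 262 among cryopreserved cells, a ratio of 1.68 (1.57 to 1.81). The ratio was 1.5 both in cells of 10000 to 20000 UMIs (1.44 to 1.56) and in those of 20000 to 30000 UMIs (1.35 to 1.65). In cells of 2500 to 5000 UMIs it was 1.30 (1.10 to 1.54). Among cells of 2500 UMIs or fewer, with 30 and 106 RBM3 UMIs, it was 1.02 (0.68 to 1.59). Within basal keratinocyte-like cells the level itself was higher in deeper cells, with 171, 274 and 365 CPM in the fresh library at 5000 to 10000, 10000 to 20000 and 20000 to 30000 UMIs. Their ratio between the libraries in those bins was 1.55 (1.24 to 1.94), 1.49 (1.39 to 1.59) and 1.37 (0.98 to 1.89), against 1.27 for all basal keratinocyte-like cells. Only the interval at 10000 to 20000 UMIs lay above 1.27, and the deepest bin held 4 cryopreserved cells. Fresh fibroblast-like cells had 108, 155 and 121 CPM in the same bins, with no steady order.

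A high mitochondrial share is a common sign of damaged cells, and the RBM3 level per total UMIs varied with it. Among barcodes within the gene and UMI maxima, the fresh level was 163 CPM at up to 2% mitochondrial UMIs, 220 at 2 to 4%, 157 at 6 to 10%, 98.8 at 10 to 20% and 30.6 above 40%. The cryopreserved levels in those bins were 257, 333, 205, 169 and 73.3. Mitochondrial UMIs are part of the total, so levels were also taken over the other UMIs. There the fresh level was 227 at 2 to 4%, 170 at 6 to 10%, 113 at 10 to 20%, 78.0 at 20 to 40% and 86.9 above 40%. On that scale the cryopreserved level was 343 at 2 to 4%, 221 at 6 to 10%, 194 at 10 to 20%, 218 at 20 to 40% and 227 above 40%. The bins at 20 to 40% and above 40% rest on 23 and 18 fresh and on 14 and 6 cryopreserved RBM3 UMIs. With so few, it cannot be told if either level kept falling there. The cryopreserved library stayed above the fresh library in each of the 7 bins, and the interval of the ratio included 1 only above 40%, where it rests on 18 and 6 RBM3 UMIs.

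**Figure D5:**
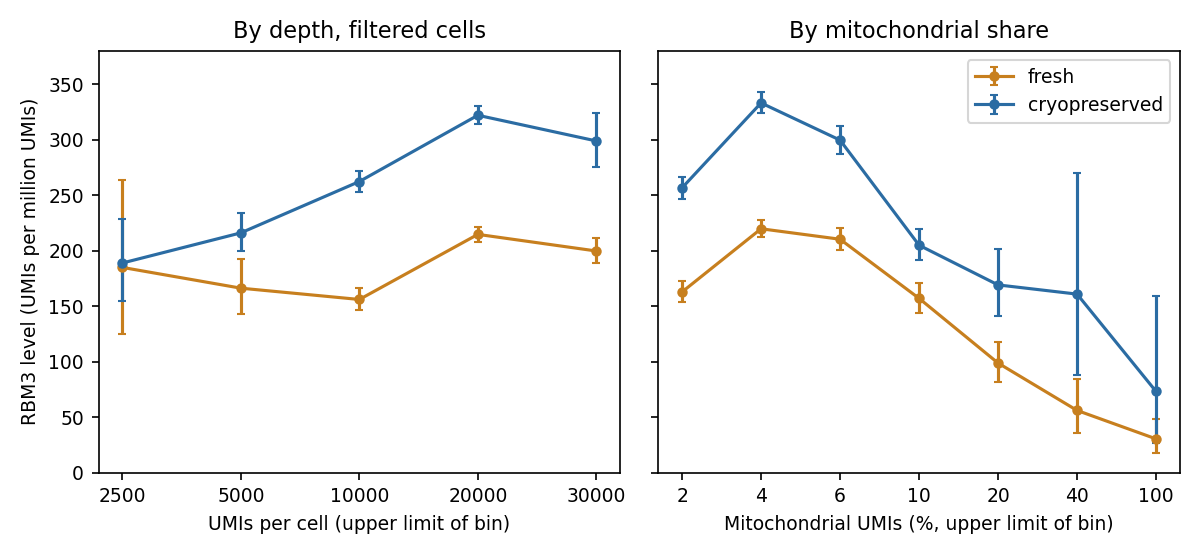
RBM3 level in CPM of total UMIs (y axis) in the fresh and the cryopreserved library, by UMIs per cell in filtered cells (left) and by mitochondrial share in barcodes within the gene and UMI maxima (right), with exact 95% Poisson intervals. The libraries are close in the shallowest cells, at 185 and 189, and apart in the deeper ones. The shallowest bin rests on only 30 and 106 RBM3 UMIs, and the interval of its ratio is wide (0.68 to 1.59). Both libraries are lower above 10% mitochondrial UMIs than at 2 to 6% on this scale, which includes the mitochondrial UMIs in the total.

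Related genes were examined as lists. CIRBP has no row in the matrices under that name and was not analysed here. Of 10 listed relatives with an RNA recognition motif and a glycine-rich tail, 7 could be measured, and 0 had a log2 ratio of at least 0.5 in either direction, against 10.2% of all genes higher and 7.47% lower. Their median log2 ratio was 0.18, beside 0.02 for all genes. HNRNPA1, a splicing factor, had the value nearest to that size, a log2 ratio of 0.496. It had 227 CPM among fresh cells and 320 CPM among cryopreserved cells. HNRNPA1 and HNRNPDL were each higher in 10 of 10 lineages, as were 11.9% of the 1406 genes with at least 50 UMIs in every lineage. HNRNPA2B1 was higher in only 1 and HNRNPA3 in 4 of 10 lineages.

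Another list held 21 genes of temperature-sensitive splicing or the control of RBM3, among them the CLK kinases and the SR proteins they phosphorylate. Over all filtered cells 20 were measured and 0 passed that size, with a median of 0.09. For each list here the shares of all genes were 10.2% higher and 7.47% lower. Within single lineages 2 or 3 members of this list were higher past that size, and at most 1 was lower. The share of all genes higher there was 10.1 to 15.3%. PLCG1, a phospholipase of receptor signalling, came nearest over all filtered cells with 0.48, from 13.4 and 18.6 CPM. PLCG1 was higher in 7 of the 7 lineages where it was measured, with only 437 and 673 UMIs over all filtered cells. The share of all genes higher in those 7 lineages was not computed. HNRNPH1, SRSF2, SRSF3 and SRSF7 of the same list were each higher in 10 of 10 lineages, beside 11.9% of the 1406 genes with enough UMIs in every lineage. Other members went the other way, as CREB1 was higher in only 1, CLK4 in 2 and TRA2A in 3 of 10 lineages. Cold shock domain proteins had 4 of 5 members measured, 0 past that size and a median of 0.09. Among 16 measured heat shock chaperones of 18 listed, only HSPA5, the chaperone of the endoplasmic reticulum, passed it, with 239 and 431 CPM and a log2 ratio of 0.85. The next were HSPE1, a mitochondrial chaperonin, at 0.47 and HSPH1 at -0.41. The median of the chaperones was 0.11. HSPA5 was higher in 10 of 10 lineages, from 0.16 to 1.39, beside 11.9% of the 1406 genes with enough UMIs in every lineage. HSPA4, HSPB1 and HSPH1 were each higher in only 2 of 10.

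The genes whose levels ran most like those of RBM3 over the 20 lineage sums of both libraries were found by Pearson's r of log2(CPM + 1) among 7583 genes with at least 1000 UMIs. RPL35A led with r = 0.95, followed by TOMM22 at 0.94 and by RPS3A, BTF3 and the unnamed ENSSSCG00000017509 at 0.93. RPL35A and RPS3A encode ribosomal proteins, BTF3 a subunit of the nascent polypeptide-associated complex and TOMM22 a receptor of mitochondrial protein import. Genes of ribosomal proteins have many near-identical copies, so their counts are uncertain. The most opposite patterns belonged to INO80D at -0.91, STX2 at -0.89, FNDC3B and KIF1B at -0.87 and SEC63 at -0.87. The sums share their libraries, and these values are descriptions.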

How the data were processed

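The authors deposited, per the labels and the paper, raw UMI counts per gene and barcode for 1 fresh and 1 cryopreserved library of the 10x Genomics 3′ kit. The submitters' processing notes name Cell Ranger 4.0.0, STAR 2.5.1b and Sscrofa11.1. The Ensembl release is not given in the sources used here. The counts were not normalized. The gene and barcode tables of the deposited files hold names only.

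RBM3 and all lists were chosen with earlier results of these data known. Of 31908 gene rows, 16719 were named by the files, 782 from a table of gene names, and 14407 stayed unnamed. Cells within 4500 genes, 30000 UMIs and 10% UMIs on 13 mitochondrial genes were integrated and clustered with Seurat 5.3.0 in R 4.3.3 (2000 features, 30 dimensions, Louvain resolution 0.8). A cluster was named when at least 3 markers of a list were found in at least 10% of its cells and at least 2-fold above the median cluster. This naming rule was set after a first output was seen. No doublet caller was run.

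UMIs were summed per lineage and library and scaled to CPM with TMM factors (edgeR 4.0.16) over the pair of sums. No test was possible with 1 library per condition, and clusters and bins were scaled by total UMIs. Levels have exact Poisson, shares exact Clopper-Pearson and ratios exact conditional intervals at 95%, all of which cover counting error only. An upper limit for a count of 0 is 3 counts. For all genes 0.5 UMI was added to both sums before the ratio. Thinning drew UMIs per cell without replacement. The ratio script was tested on simulated data. Listed genes are named where their log2 ratio reached 0.5 either way on at least 50 UMIs, and the 5 most and 5 least alike genes. HNRNPA1, HNRNPA2B1, HNRNPA3, HNRNPDL, HNRNPH1, SRSF2, SRSF3, SRSF7, CREB1, CLK4, TRA2A, PLCG1, HSPE1, HSPA4, HSPB1 and HSPH1 fall outside this rule and were named after their values were seen. RefSeq annotation of Sscrofa11.1 gave the gene model, and regions that resemble the transcript were found with BLAST.

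Alternatives were total UMIs, DESeq2 1.42.0 size factors, all barcodes, no or a 5% mitochondrial limit, other clusterings, other thinning depths, and limits on cell depth.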

Additional observations from a re-analysis of the deposited data

How the results depend on the processing

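RBM3 was higher in the cryopreserved library under each alternative tried. Over 10 lineages and their alternatives, 109 of 109 log2 ratios were above 0, 104 had a counting interval above 0 (the other 5 were 3 of mast-like, 1 of differentiated keratinocyte-like and 1 of Langerhans or dendritic-like cells), and 102 lay within the interval of the reported value. They ran from 0.14 in differentiated keratinocyte-like cells without a mitochondrial limit to 1.01 in the same lineage in cells of 5000 to 10000 UMIs. Part of the 109 values repeat the reported value exactly, since another clustering often left the cells of a lineage unchanged. In lymphatic-like, mast-like and blood endothelial-like cells this was so under all other clusterings of the filtered cells. At resolutions 0.4 and 1.2 it was also so in fibroblast-like, T or NK-like and smooth muscle or mural-like cells. The same held there for Langerhans or dendritic-like and CD163/CD209 myeloid-like cells. Such values add no check. At resolution 0.4 no separate differentiated keratinocyte lineage formed, and all 9 lineages were higher. For the whole library the log2 ratio of 0.59 became 0.54 with all deposited barcodes, 0.53 with the fresh lineage shares applied to both libraries and 0.75 in cells of 5000 to 10000 UMIs. The last setting, TMM factors over all lineage sums together, and a minimum of 10000 UMIs for dividing cells were chosen after seeing the data.

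The share of cells with an RBM3 UMI, 38.1% fresh and 50.9% cryopreserved at 3000 UMIs, was 17.1% and 22.0% at 1000 UMIs, 55.7% and 69.5% at 5000 UMIs, and 73.3% and 74.0% without thinning. In cryopreserved basal keratinocyte-like cells, the log2 ratio of dividing over other cells, 0.37, was 0.67 with all barcodes and 0.092 in cells of 10000 UMIs or more. In fresh T or NK-like cells it was 0.04, with -0.03 and -0.20 under these settings, inside its wide interval. With all barcodes the log2 ratio of dividing over other cells was 0.64 in place of 0.42 in fresh basal keratinocyte-like cells. Fibroblast-like cells had 1.11 in place of 0.80 (fresh) and 0.79 in place of 0.94 (cryopreserved). The counts of listed genes past the threshold did not change.

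No paired analysis was possible because each condition has 1 library and the result comes from no test. Leaving out a replicate does not apply. Any reads shared with the copies on chromosome 1 or the region on chromosome 6 were not separated.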
